A study of Homo sapiens with 4 samples.

Results

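The Golgi glycosyltransferase genes are described here in T24 cells, a human line from a urothelial carcinoma of the bladder. They were taken by symbol alone, as every gene of the files named B3GNT, B3GALT, B4GALT, B4GALNT, GALNT, ST3GAL, ST6GAL, ST6GALNAC, ST8SIA, FUT, GCNT or MGAT with a number, a rule that uses no measured value. This gave 87 of the 57879 genes, in 12 families. RNAseq was performed on 2 libraries of control cells carrying the empty vector (EV) and 2 libraries of cells that stably express the FLAG-tagged catalytic domain of TET1 (TET1-CD). All 4 libraries came from T24 cells grown in RPMI with 10% serum, and GEO labels their source alike as T24_induced, without naming an inducer. By the study's methods, cells that had taken up lentiviral vectors were selected with puromycin. Whether the transfectants were clones or pools, and whether libraries of a group came from separate cultures, is not given in the sources used here, so p-values measure the spread between these libraries only.

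Glycosyltransferases of the Golgi build the sugar chains of glycoproteins, glycolipids and proteoglycans one residue at a time, each enzyme adding a given sugar from a nucleotide donor to a given acceptor. GALNT enzymes start mucin-type O-glycans, and MGAT and GCNT enzymes set the branches of N-glycans, O-glycans and poly-N-acetyllactosamine. B3GNT, B3GALT, B4GALT and B4GALNT enzymes lengthen the chains, and FUT and sialyltransferase (ST) enzymes cap them. In bladder epithelium and its tumours, the chain ends include blood group and Lewis antigens. TET1 oxidizes 5-methylcytosine in CpG dinucleotides, the first step of active DNA demethylation. The comparison asks which of these genes differed between TET1-CD and EV cells.

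The authors deposited estimated (expected) counts of fragments and FPKM values per transcript. Totals were between 17442143 and 20295266 fragments per library, with overlap of the groups. The 87 genes took 0.265% to 0.270% of each library. TET1 itself had 111 and 83 counts in EV against 2939 and 3310 in TET1-CD cells (log2 fold change 5.02, standard error 0.08, adjusted p = 4.91e-10, edgeR), as the labels of the 4 libraries say. The epithelial keratin genes KRT7, KRT8 and KRT18 were abundant in all 4 libraries. KRT19 had 66 to 169 counts and EPCAM 46 to 86, whereas CDH1 had at most 2 counts. Of 10 urothelial markers, FOXA1 had 366 to 587 counts and PPARG 363 to 461. GATA3 had 19 to 46 counts and UPK3B 16 to 38. KRT5 and KRT20 were at 0, and UPK1A, UPK1B, UPK2 and UPK3A had at most 6 counts. Fibroblast, endothelial and leukocyte markers were at or near 0 except COL1A1 (88 and 70 counts in EV, 266 and 314 in TET1-CD cells), CDH5 and CD14. The summed level of the epithelial list was 2348 and 2330 counts per 1000000 of the scaled library size (CPM) in EV against 2652 and 2616 in TET1-CD cells. Of its 5 tested genes, KRT7, KRT18 and KRT19 were higher at an adjusted p under 0.05 (edgeR) and 0 were lower. Over all genes tested, 10.0% were higher and 9.61% lower. The part of these marker lists in the values below was not tested.

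Promoters of 3 called members, 2 higher and 1 lower in TET1-CD cells, are shown because CpG sites are the substrate of TET1. The 3 genes were picked without a fixed rule, and 1 RefSeq entry was kept per gene. Methylation was not measured in these files. The 250 bases upstream of the RefSeq start (GRCh38.p14) are printed on the gene's strand, with every CpG in capitals. B3GNT7 (chr2:231395460-231395709, plus strand) and GALNT12 (chr9:98807420-98807669, plus strand) were higher in TET1-CD cells, and B4GALNT4 (chr11:369249-369498, plus strand) was lower.
B3GNT7: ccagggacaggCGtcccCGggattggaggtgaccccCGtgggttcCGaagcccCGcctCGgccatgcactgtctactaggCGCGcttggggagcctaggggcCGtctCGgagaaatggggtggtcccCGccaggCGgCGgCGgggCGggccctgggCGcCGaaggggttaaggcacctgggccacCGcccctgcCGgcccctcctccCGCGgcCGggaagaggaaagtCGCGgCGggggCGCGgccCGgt
GALNT12: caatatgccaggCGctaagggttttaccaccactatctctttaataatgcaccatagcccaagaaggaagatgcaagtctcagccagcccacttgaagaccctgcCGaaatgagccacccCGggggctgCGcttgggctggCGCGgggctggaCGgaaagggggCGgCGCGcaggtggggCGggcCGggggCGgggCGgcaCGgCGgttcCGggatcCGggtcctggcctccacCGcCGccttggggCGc
B4GALNT4: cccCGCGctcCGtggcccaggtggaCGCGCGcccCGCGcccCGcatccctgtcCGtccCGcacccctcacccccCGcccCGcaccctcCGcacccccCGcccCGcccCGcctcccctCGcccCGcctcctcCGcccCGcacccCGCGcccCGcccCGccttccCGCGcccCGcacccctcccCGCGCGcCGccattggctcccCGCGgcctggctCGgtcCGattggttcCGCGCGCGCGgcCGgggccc
They hold 28, 21 and 42 CpG sites. Of the 35116 promoters of this length in the RefSeq table, 93.9% hold at least 1 CG, a motif that reads the same on both strands. At least 28 were found in 15.9% of them, at least 21 in 30.2% and at least 42 in 1.38%. Across the 60 members with an entry, the median was 26 sites for the 8 that were called higher, 31.5 for the 6 called lower and 18 for the 27 tested and not called, against 21 for the 9852 tested genes with an entry. The range among the genes called higher was 3 (GCNT2) to 42 and among those called lower 2 (ST6GALNAC6) to 44. CpG-rich and CpG-poor promoters thus stood on both sides, and the groups were not tested against each other.

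Of the 87 genes, 57 had enough counts for a test. By edgeR's quasi-likelihood test, TET1-CD cells had 10 of them higher and 9 lower, with an adjusted p under 0.05. This was 17.5% and 15.8% of those tested, against 10.0% and 9.61% of all 14573 genes tested. With a fold change of at least 2 as well, the fold the study required, 3 genes were higher (B3GNT7, MGAT3 and GALNT3) and 1 was lower (B4GALNT4), where the shares over all genes were 2.72% and 1.04%. The other 15 calls were below 2-fold. The median log2 fold change of the 57 genes was 0.04 and that of all genes 0.00, while the median size regardless of sign was 0.28 and 0.16. By adjusted p, the members were called at a higher share than genes at large, in both directions and mostly by small amounts. At an unadjusted p under 0.05 (edgeR), 13 were higher and 9 lower, where the shares over all genes were 16.8% and 16.4%. The lower share of members, 15.8%, was then not above that of all genes. No test of that share was made. Without TET1-CD replicate 1 or without TET1-CD replicate 2, 9 of the 19 calls were kept in each case, and calls over all genes fell to 1180 and 1285, from 2865.

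**Figure D1:**
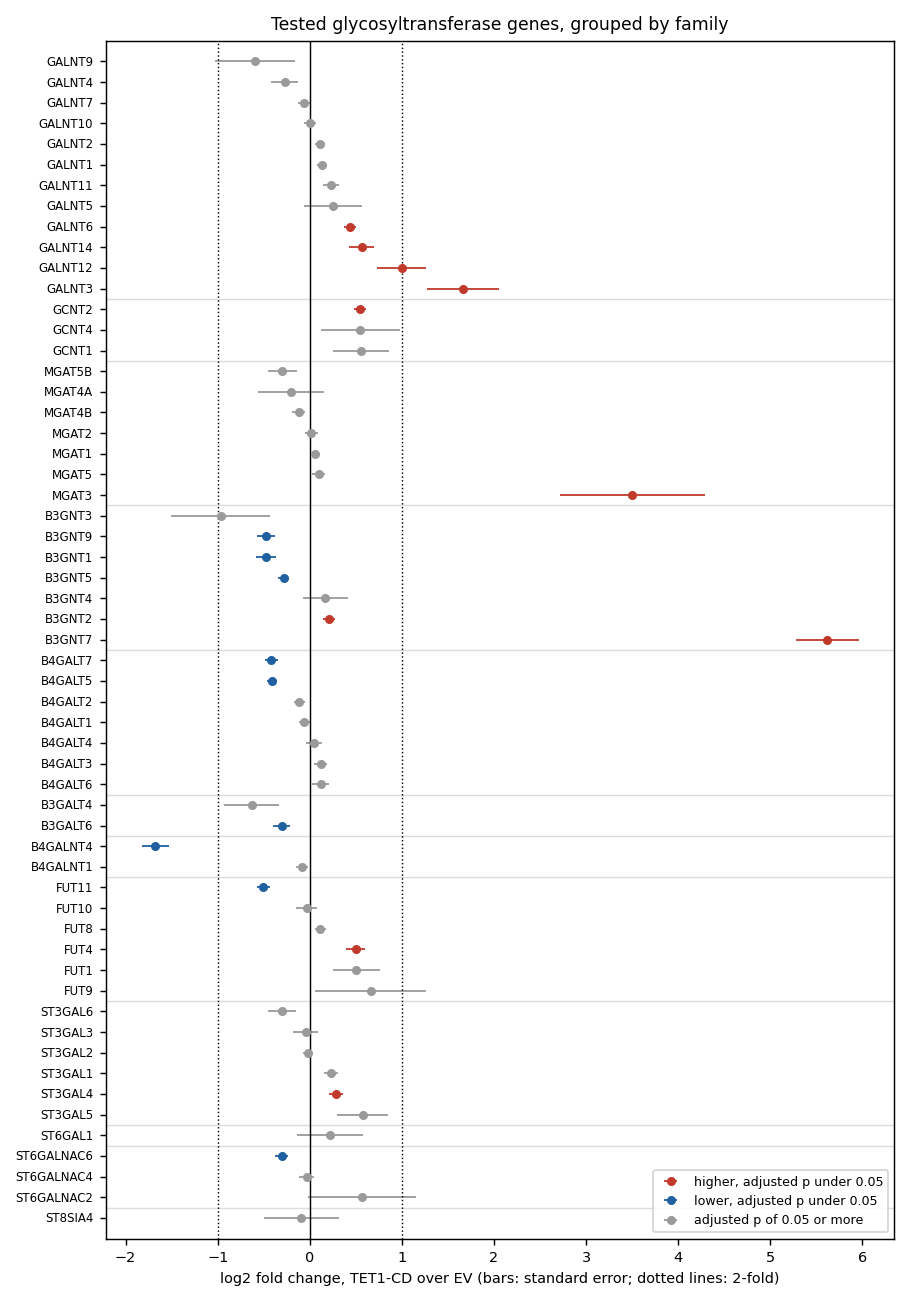
Log2 fold change of TET1-CD over EV (x axis) for the 57 tested genes, grouped by family, with standard errors from edgeR as bars. B3GNT7 (5.62) and MGAT3 (3.50) lie far to the right, B4GALNT4 (-1.68) is the only called gene left of the 2-fold line, and all 4 called GALNT genes lie to the right of 0.

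B3GNT7, which extends keratan sulfate chains by N-acetylglucosamine, had the largest difference. The gene (ENSG00000156966) lies on chromosome 2 from 232260254 to 232265875 on the plus strand of GRCh37 (hg19), the build of the files. It had 2 and 3 counts in EV against 131 and 124 in TET1-CD cells, and in the latter all of them were assigned to the protein-coding transcript ENST00000287590. Pooled over libraries, 5 counts stood against 255, a ratio of 51.5 (95% exact interval 21.8 to 160, which covers counting error only). The adjusted p was 4.71e-06 (edgeR), and across the alternatives it lay between 1.80e-57 and 1.25e-04. Even so the level in TET1-CD cells was modest, at 2.02 and 1.71 FPKM against 0.08 and 0.10 in EV cells. Both TET1-CD libraries were thus high and both EV libraries close to the 3 counts taken as the floor of detection.

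The other B3GNT genes moved by far less. B3GNT2, the main extender of poly-N-acetyllactosamine, stood at 44.1 and 46.5 CPM in EV against 52.9 and 52.0 in TET1-CD cells (log2 fold change 0.21, standard error 0.07, adjusted p = 0.048, edgeR). DESeq2 did not call it, nor did the fit without a filter. B3GNT5, which opens the lacto-series of glycolipids, was at 70.3 and 67.4 CPM in EV against 58.0 and 55.2 in TET1-CD cells, a fall of 0.28 on the log2 scale (standard error 0.06, adjusted p = 0.011, edgeR). B3GNT9 decreased from 29.2 and 33.8 to 22.7 and 22.5 CPM (log2 fold change -0.47, adjusted p = 0.00728, edgeR). It overlaps C16orf70 on the opposite strand, which had 472 and 409 counts in EV against 446 and 483 in TET1-CD cells. Some fragments may thus be shared. The gene symbol B3GNT1 of the files is that of the chromosome 11 gene now called B4GAT1, a glucuronyltransferase needed for the matriglycan of dystroglycan. It went from 15.4 and 17.4 to 11.6 and 11.98 CPM (log2 fold change -0.47, adjusted p = 0.0152 with edgeR and 0.0691 with DESeq2). In each of these 4 genes the groups did not overlap. That adds little to the calls, since the groups of B3GNT3 also separated without a call. B3GNT3 had 13 and 11 counts in EV against 6 and 6 in TET1-CD cells, which did not pass (adjusted p = 0.239, edgeR), and B3GNT4 had overlapping groups. Of the 7 B3GNT genes tested, 2 were higher, 3 lower and 2 not called, where the shares over all genes were 10.0% and 9.61%. No test of the family was made. B3GNT6 and B3GNT8 had too few counts.

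B4GALNT4, which adds N-acetylgalactosamine to make the LacdiNAc end group, showed the largest fall. The gene (ENSG00000182272, chromosome 11, 369796 to 382116, plus strand) had 235 and 224 counts in EV against 73 and 69 in TET1-CD cells, or 11.6 and 12.9 against 4.16 and 3.52 CPM. Each TET1-CD library was thus below each EV library. This is a log2 fold change of -1.68 (SE 0.15, adjusted p = 5.98e-05, edgeR), which is 3.20-fold lower, and the call was kept in all 11 alternatives. Between 96.7% and 98.6% of its counts fell on ENST00000329962. Its homologue B4GALNT3, which makes the same end group, had too few counts for the test, with 1 and 0 counts in EV against 15 and 7 in TET1-CD cells. That is 1 count against 22, a ratio of 22.2 with an exact 95% interval of 3.59 to 918, which covers counting error only. Such ratios were taken only for genes with at most 3 counts in each EV library, a choice that favours values above 1. In FPKM, B4GALNT3 was at 0.09 and 0 in EV against 0.34 and 0.11 in TET1-CD cells, a difference that was not tested. B4GALNT4 was still the more abundant of the 2 genes in TET1-CD cells (1.33 and 1.20 FPKM). B4GALNT1, which makes the gangliosides GM2 and GD2 and has the family's highest mean FPKM, was at 52.3 and 52.8 CPM in EV against 50.6 and 48.2 in TET1-CD cells (log2 fold change -0.09, standard error 0.06, adjusted p = 0.374, edgeR). B4GALNT2 was at 0 counts in every library.

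Among the GALNT genes, which initiate mucin-type O-glycosylation, edgeR called 4 of 12 tested higher in TET1-CD cells and 0 lower. At an unadjusted p under 0.05, 6 were higher and 0 lower, while DESeq2 called 2 higher and 0 lower and limma-voom 4 and 0. Over all genes, the shares called higher were 16.8% at an unadjusted p, 6.09% with DESeq2 and 10.1% with limma-voom, so the 4 calls stand beside a background of 10.0% and no test of the family was made. GALNT6 (chromosome 12, 51745031 to 51786651, minus strand) rose from 61.7 and 58.4 to 84.9 and 77.7 CPM (log2 fold change 0.44, standard error 0.07, adjusted p = 0.00188, edgeR). GALNT14 was at 12.7 and 9.59 CPM in EV against 15.7 and 17.3 in TET1-CD cells (log2 fold change 0.56, adjusted p = 0.0183, edgeR). GALNT12, with 36 and 25 counts in EV against 64 and 56 in TET1-CD cells, showed a log2 difference of 0.998 (standard error 0.26, adjusted p = 0.0252, edgeR). GALNT3, whose product glycosylates the hormone FGF23, had 14 and 7 against 33 and 33 counts (log2 fold change 1.66, standard error 0.39, adjusted p = 0.0156, edgeR). Its low counts leave it less certain, since DESeq2 gave an adjusted p of 0.0617 for GALNT3 and of 0.117 for GALNT12. In these 4 genes the libraries of the groups did not overlap. That adds little to the calls, since GALNT1, GALNT2 and GALNT11 also separated without being called. The family's highest mean FPKM was that of GALNT2, which stood at 251 and 234.5 CPM in EV against 260 and 266 in TET1-CD cells, and the difference of 0.11 on the log2 scale did not pass (standard error 0.06, adjusted p = 0.189, edgeR). GALNT10 differed by 0.00 on the log2 scale (standard error 0.06). GALNT8 was at 0, and GALNT13, GALNT15, GALNT16 and GALNT18 had at most 12 counts.

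**Figure D2:**
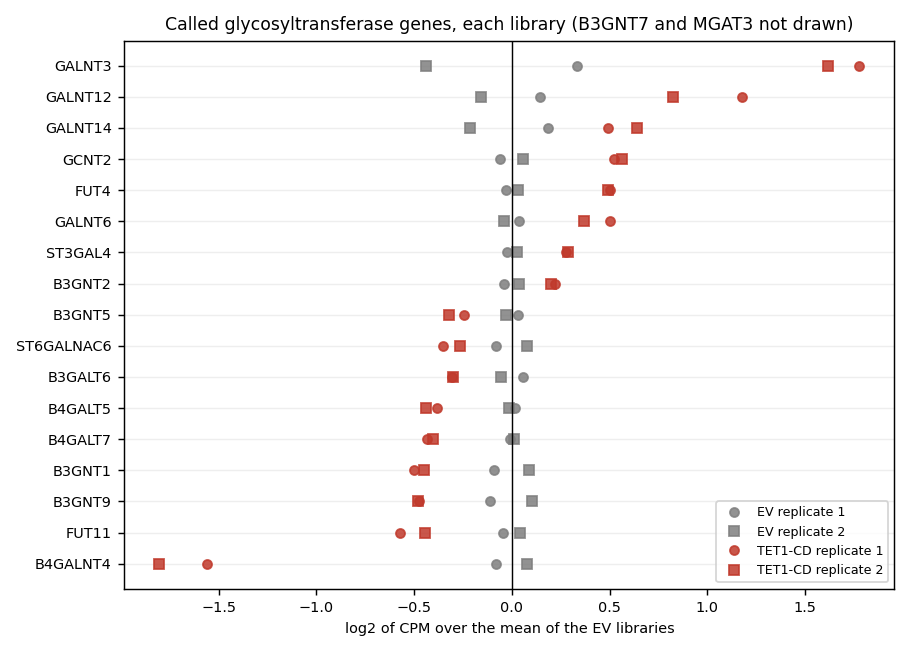
CPM of each library over the mean of the EV libraries (x axis, log2) for 17 of the 19 called genes, with EV in grey and TET1-CD in red. The rows were chosen by the test, which favours separated groups. In every row the red points lie on one side of the grey ones, and the EV libraries themselves are furthest apart for GALNT3, where the counts are lowest.

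Among the branching enzymes, edgeR called 1 of 3 GCNT genes and 1 of 7 MGAT genes tested, both higher, against 10.0% of all genes. GCNT2, which forms the branched I antigen of poly-N-acetyllactosamine (chromosome 6, 10492456 to 10629601, plus strand), rose from 41.3 and 44.7 to 61.8 and 63.6 CPM, so the groups stood apart (log2 fold change 0.55, standard error 0.07, adjusted p = 5.11e-04, edgeR). The gene has several first exons. Its counts fell mainly on ENST00000379597, which took 95.5% and 95.6% of them in EV against 94.8% and 86.7% in TET1-CD cells. This dominant transcript rose, with 798 and 739 counts in EV against 1028 and 1081 in TET1-CD cells. In TET1-CD replicate 2 alone, other transcripts were higher too. ENST00000397423 had 16.7 and 14.1 counts in EV against 16.7 and 61.7 in TET1-CD cells, and ENST00000495262 had 42.9 in that replicate and 0 elsewhere. GCNT1 and GCNT4 had log2 fold changes of 0.56 and 0.55 at no more than 40 counts, and neither passed (adjusted p = 0.235 and 0.411, edgeR). MGAT3, which adds the bisecting N-acetylglucosamine of N-glycans, had 1 and 1 counts in EV against 12 and 13 in TET1-CD cells. Pooled, 2 counts stood against 25, a ratio of 12.6 with an exact 95% interval of 3.15 to 110, which covers counting error only. Its adjusted p was 0.0125 with edgeR and 0.0677 with DESeq2, and the level in TET1-CD cells was only 0.14 and 0.13 FPKM.

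In contrast, the abundant MGAT genes of the main N-glycan route stayed close to their EV level. MGAT1, which opens the route to complex N-glycans, differed by 0.05 on the log2 scale (standard error 0.05), MGAT2, which acts after it, 0.02 (0.07), and MGAT5, which adds a further branch, 0.10 (0.07). MGAT4B, which had the highest mean FPKM of the 87 genes, was at 158 and 182 CPM in EV against 154 and 158 in TET1-CD cells, so the groups overlapped (log2 fold change -0.12, standard error 0.07, adjusted p = 0.258, edgeR). The log2 fold change was -0.23 without EV replicate 1 and -0.02 without EV replicate 2. None of the 4 was called by edgeR with all libraries, which does not show that the levels were equal.

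Of the 7 B4GALT genes, all of them tested, 2 were lower and 0 higher by edgeR. At an unadjusted p under 0.05 there were likewise 2 and 0, and DESeq2 and limma-voom each called 2 lower and 0 higher. The shares of all genes called lower were 9.61% by edgeR, 16.4% at an unadjusted p, 5.85% with DESeq2 and 9.44% with limma-voom, and 2 of 7 genes are too few to set the family apart from them. B4GALT5, the main lactosylceramide synthase (chromosome 20, 48249482 to 48330415, minus strand), decreased from 287 and 281 to 218 and 209 CPM (log2 fold change -0.41, standard error 0.05, adjusted p = 6.83e-04, edgeR). B4GALT7, the first galactosyltransferase of the glycosaminoglycan linker, went from 39.9 and 40.5 to 29.7 and 30.4 CPM (log2 fold change -0.42, standard error 0.07, adjusted p = 0.00386, edgeR). Both calls were kept in all 11 alternatives. B3GALT6, which adds the next galactose of the same linker, was at 21.2 and 19.6 CPM in EV against 16.5 and 16.6 in TET1-CD cells (log2 fold change -0.31, standard error 0.10). This lay at the threshold (adjusted p = 0.0492 with edgeR and 0.238 with DESeq2). B3GAT3, the glucuronosyltransferase that completes the linker and lies outside the symbol rule, was higher, at 19.9 and 21.3 CPM in EV against 26.4 and 26.2 in TET1-CD cells (log2 fold change 0.35, adjusted p = 0.0199 with edgeR and 0.0923 with DESeq2). B4GALT1, which makes most N-acetyllactosamine of glycoproteins, was at 266 and 278 CPM in EV against 270.5 and 252 in TET1-CD cells, with overlap (log2 fold change -0.06, standard error 0.06, adjusted p = 0.522, edgeR). B4GALT2, B4GALT3, B4GALT4 and B4GALT6 were between -0.12 and 0.12 on the log2 scale and were not called.

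Of the 6 fucosyltransferases tested, 1 was lower and 1 higher, against 9.61% and 10.0% of all genes. FUT11, which had the highest mean FPKM of them (chromosome 10, 75532049 to 75540009, plus strand), decreased from 77.2 and 82.1 to 53.7 and 58.6 CPM (log2 fold change -0.50, standard error 0.07, adjusted p = 8.38e-04, edgeR), and every alternative kept the call. The 2 transcripts with most of its counts were both lower. ENST00000372841 had 1134 and 1004 counts in EV against 695 and 818 in TET1-CD cells, and ENST00000489264, without an annotated coding sequence, 366 and 350 against 191 and 267. FUT4, which makes the Lewis x antigen, rose from 11.5 and 12.02 to 16.6 and 16.6 CPM (log2 fold change 0.50, standard error 0.10, adjusted p = 0.00848, edgeR). FUT8, which adds the core fucose of N-glycans, was not called (log2 fold change 0.11, standard error 0.06, adjusted p = 0.210, edgeR). FUT1, the H antigen enzyme, differed by 0.50 on the log2 scale (SE 0.26, adjusted p = 0.204, edgeR). FUT3, FUT5, FUT6 and FUT7 were at 0 counts in all 4 libraries. FUT3, FUT5 and FUT6 are near-identical neighbours on chromosome 19, among which fragments can be split, but their sum was 0 too. Neither group thus showed a fragment of the Lewis enzyme FUT3, and 3 counts, the limit that a count of 0 allows, correspond to 0.148 to 0.173 CPM.

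Among the sialyltransferases, ST3GAL4 was called higher and ST6GALNAC6 lower. ST3GAL4, which caps N-acetyllactosamine with sialic acid, was at 31.8 and 33.0 CPM in EV against 39.3 and 39.5 in TET1-CD cells (log2 fold change 0.28, standard error 0.07, adjusted p = 0.0233, edgeR). DESeq2 gave it an adjusted p of 0.111. ST6GALNAC6, which forms disialyl structures on glycolipids, went from 61.5 and 68.8 to 51.0 and 54.3 CPM (log2 fold change -0.31, standard error 0.07, adjusted p = 0.0159, edgeR). Its end overlaps the gene RP11-203J24.9 on the same strand, which was listed at 94 and 30 counts in EV against 3 and 10 in TET1-CD cells, so that some fragments may be shared. ST6GALNAC4, its neighbour on chromosome 9, was at 26.7 and 26.6 against 26.5 and 25.6 CPM (log2 fold change -0.03, standard error 0.08). ST3GAL1, which caps the core of O-glycans, stood at 54.0 and 53.6 CPM in EV against 67.5 and 58.8 in TET1-CD cells and just missed the threshold (adjusted p = 0.0544, edgeR). ST3GAL2 and ST3GAL3 had overlapping groups. The sialyltransferases that act elsewhere were scarce. ST6GAL1, which sialylates N-glycans, had between 20 and 30 counts (log2 fold change 0.22, standard error 0.36), and ST8SIA4, which makes polysialic acid, between 16 and 32 (log2 fold change -0.09, standard error 0.41). ST6GAL2 and ST6GALNAC1 were at 0, and the other 5 ST8SIA genes had at most 2 counts.

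The level of these genes in T24 cells was compared by FPKM, which is scaled to length. Averaged over the 4 libraries, 41 of the 87 genes were at 1 FPKM or above and 27 at 10 or above. The highest were MGAT4B (73.1 FPKM), B4GALT1 (63.5), MGAT1 (60.3), GALNT2 (58.2) and B4GALT5 (52.6). Single libraries ran from 58.6 to 63.4 FPKM for MGAT1 and from 52.7 to 63.2 for GALNT2, so the order of these neighbours is not settled. Among the 30 genes without a test, 9 were at 0 in every library and the others had at most 15 counts.

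**Figure D3:**
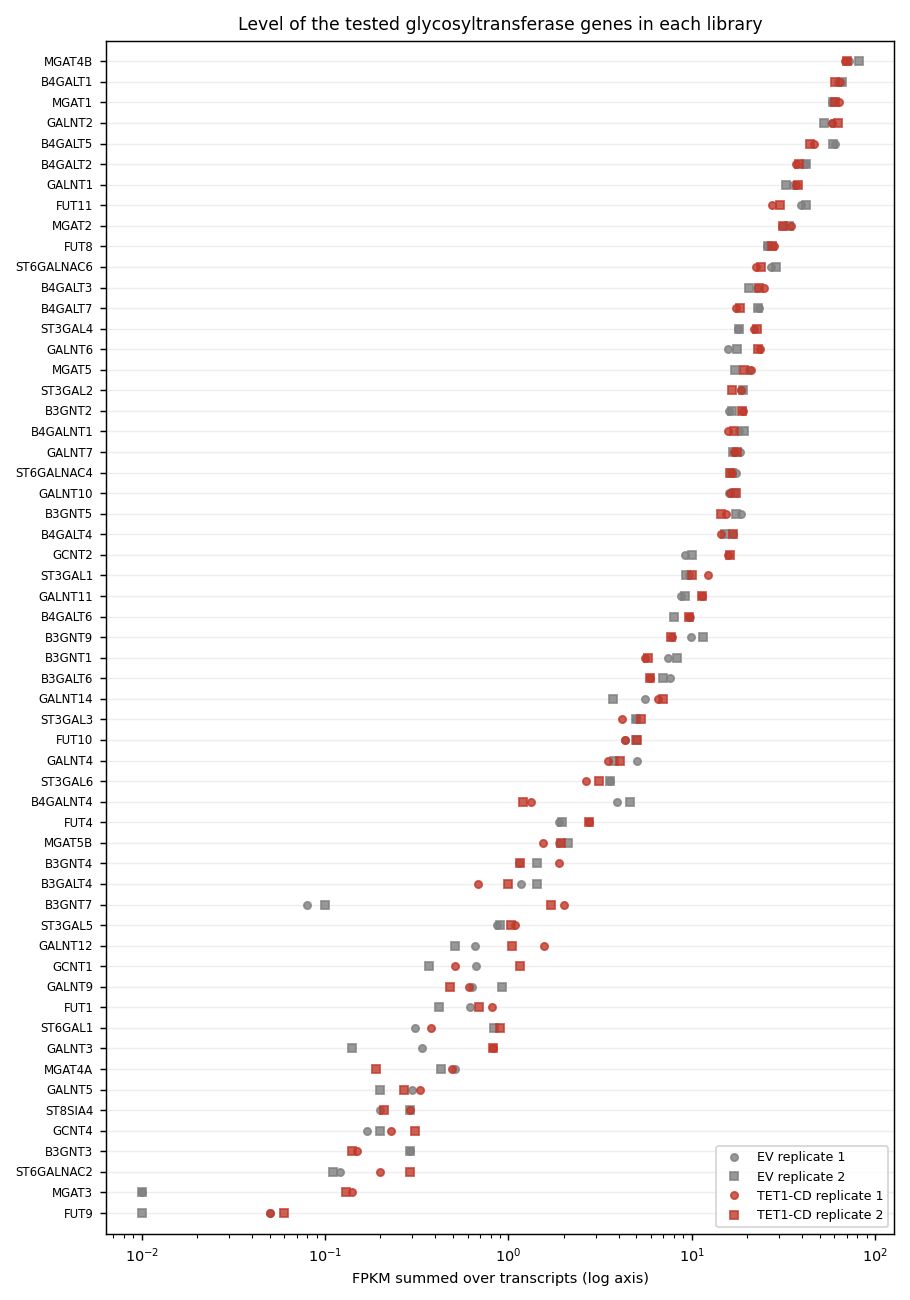
FPKM of each library (x axis, log scale, summed over transcripts) for the 57 tested genes, ordered by their mean. Most genes keep their place in all 4 libraries, and B3GNT7, MGAT3 and GALNT3 show red points far from the grey ones at low levels.

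Summed over a family, FPKM values weigh each gene by its level. In 6 families both TET1-CD sums were below both EV sums, in 3 they were above and in 3 they overlapped. With 2 libraries a group, such separation is easily reached without a difference. How often it occurs over all genes was not counted, so these numbers set no family apart. The B4GALT sum was 238 and 234 FPKM in EV against 214.5 and 212 in TET1-CD cells, a ratio of means of 0.903. The GALNT sum rose from 165 and 156 to 178 and 184.5 FPKM (1.13), and that of ST3GAL from 55.5 and 56.0 to 60.9 and 58.8 (1.07). The FUT sum fell from 72.3 and 75.6 to 63.5 and 66.4 FPKM (0.879), of which FUT11 makes up 50.2%. For GCNT the sum went from 10.2 and 10.8 to 16.8 and 17.8 FPKM (1.64), of which GCNT2 makes up 92.2%. In the MGAT family, 185 and 194 FPKM in EV stood beside 190 and 184 in TET1-CD cells. The sums are a description without a test, and each rests mainly on its few abundant genes. B3GNT7, for instance, rose while the B3GNT sum fell from 53.5 and 55.8 to 52.1 and 50.2 FPKM.

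**Figure D4:**
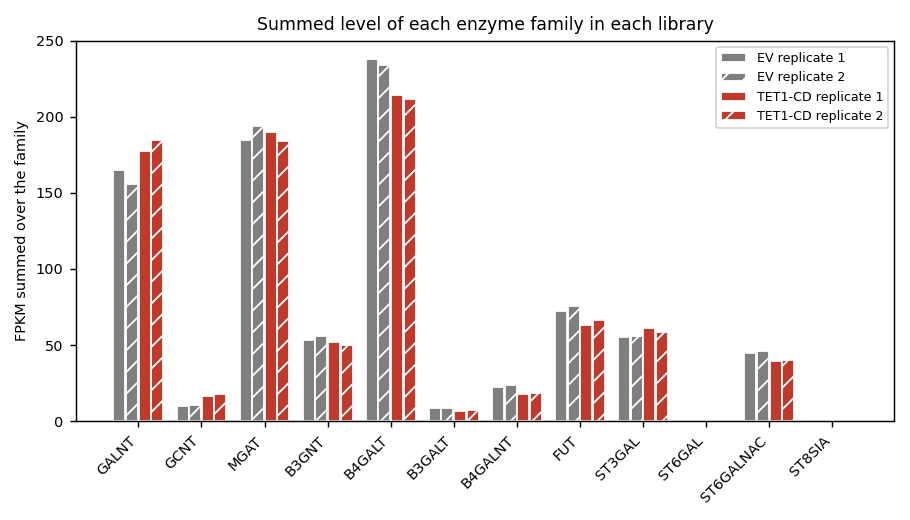
FPKM summed over all genes of each family (y axis) in the 4 libraries, EV in grey and TET1-CD in red, with replicate 2 hatched. The MGAT, B4GALT and GALNT families are the most abundant, and the red bars are lower for B4GALT (214.5 and 212) and higher for GALNT (178 and 184.5).

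The enzymes that work beside the members were examined in 8 lists written for this comparison, with 105 of their 146 genes tested. In all, 12 were higher and 9 lower by edgeR, against the shares of 10.0% and 9.61% over all genes given above. Of 13 transporters that carry nucleotide sugars into the Golgi, 0 were called by edgeR, DESeq2 or limma-voom, and 2 were higher at an unadjusted p under 0.05. Of 26 genes of nucleotide sugar synthesis, 3 were higher and 2 lower. Mannose phosphate isomerase MPI decreased by 0.43 on the log2 scale (adjusted p = 0.00238, edgeR), and sialic acid synthase NANS rose by 0.34 (adjusted p = 0.00514, edgeR). Of 9 genes of N-glycan trimming, 2 were lower, namely MAN1A1 (log2 fold change -0.35) and MOGS (-0.22), and DESeq2 called neither. Of 21 genes of Golgi structure, GOLGA1 was lower (-0.31) and ATP6V0A2 higher (0.35), and COG1 was also higher, and DESeq2 called 0 of this list. Among the glycosidases tested, MAN2B1 was lower (-0.26), a call that DESeq2 did not make (adjusted p = 0.103). Among 4 tested galectins and siglecs, LGALS8 was lower (-0.45, adjusted p = 0.00235, edgeR) and LGALS3 higher (0.41, adjusted p = 0.00348, edgeR).

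Of 16 tested glycosyltransferases outside the symbol rule, 3 were higher and 2 lower, against 10.0% and 9.61% of all genes. UGCG, which makes glucosylceramide and so starts most glycosphingolipids, decreased from 338 and 352 to 194 and 207 CPM (log2 fold change -0.78, standard error 0.06, adjusted p = 1.57e-05, edgeR). GBGT1 rose from 4.002 and 3.004 to 10.3 and 10.1 CPM (log2 fold change 1.53, standard error 0.16, adjusted p = 2.13e-04, edgeR). A4GALT, which makes the globoside precursor, fell from 14.2 and 18.6 to 11.4 and 8.26 CPM (log2 fold change -0.74, standard error 0.17, adjusted p = 0.0149, edgeR). After these values were seen, they were set beside the members that act on glycosphingolipids. Of these genes UGCG, B4GALT5, B3GNT5 and A4GALT were lower and GBGT1 was higher. No test was made of them as a group. B3GALNT1, the globoside synthase that acts after A4GALT, was at 38.2 and 40.1 CPM in EV against 45.1 and 43.8 in TET1-CD cells. It did not pass (adjusted p = 0.0973, edgeR), and B4GALNT1 was not called, as given above. B4GALT6, the other lactosylceramide synthase, had overlapping groups (38.2 and 31.9 against 37.8 and 38.5 CPM). ST3GAL5, the GM3 synthase, had 38 and 24 counts in EV against 46 and 45 in TET1-CD cells (adjusted p = 0.179, edgeR), and B3GALT4, the GM1 synthase, 40 and 41 against 20 and 32 (adjusted p = 0.178, edgeR).

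**Figure D5:**
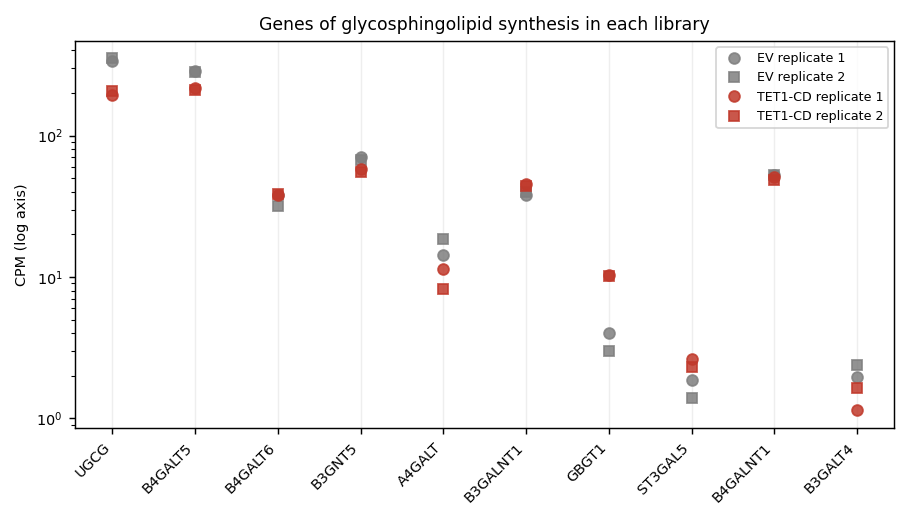
CPM of each library (y axis, log scale) for genes of glycosphingolipid synthesis, chosen after their values were seen. The TET1-CD libraries lie below the EV libraries for UGCG (194 and 207 against 338 and 352), B4GALT5, B3GNT5 and A4GALT, and above them for GBGT1, while B3GALNT1, ST3GAL5, B4GALNT1 and B3GALT4 also separate without passing the test.

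Mucins, the carriers of the O-glycans that GALNT enzymes begin, were scarce in T24 cells. Of 15 mucin symbols, 4 genes were tested, and edgeR called 2 higher and 0 lower. Over all genes the shares were 10.0% and 9.61%, and 4 genes are too few to set the list apart from them. At an unadjusted p under 0.05, 2 were higher and 1, MUC1, was lower. MUC1 dropped from 50 and 35 counts to 14 and 31 with TET1-CD, by 0.90 on the log2 scale (adjusted p = 0.0999, edgeR). MUC12 was not called either and lay on the higher side (0.44, standard error 0.43). MUC5AC had 10 and 22 counts in EV against 169 and 223 in TET1-CD cells (log2 fold change 3.61, standard error 0.28, adjusted p = 2.59e-05, edgeR), and MUC2 5 and 11 against 27 and 37 (log2 fold change 1.99, adjusted p = 0.0145, edgeR). The repeats of these neighbouring genes are alike, so fragments may be split between them.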

How the data were processed

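RNA of 4 T24 libraries, 2 EV and 2 TET1-CD, was sequenced on an Illumina HiSeq instrument. The authors made and deposited for each library an expected count of fragments (estimated, not normalized) and an FPKM value per transcript, with GRCh37 (hg19) as the build. The tool that made these values is not given in the sources used here. The submitters' processing notes name cutadapt 1.9.1, HISAT2 2.0.1, HTSeq 0.6.1 and DESeq2 with no role for each. Strand use in counting is not given in the sources used here, so genes that overlap or lie antisense cannot be told apart. Of the 19 called members, 6 overlap another gene that had at least 10 counts in a library. Groups were taken from the GEO labels.

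Counts were summed per gene and rounded. Genes passing filterByExpr were tested with edgeR 4.0.16 (TMM, quasi-likelihood test, R 4.3.3), with Benjamini-Hochberg adjustment over all 14573 genes tested and a threshold of 0.05. The standard error is the size of the log2 fold change over the square root of F. CPM is the rounded count per 1000000 of the library size, taken over the genes tested and scaled by TMM. The deposited FPKM values were summed per gene and served for levels only. Ratios of low counts carry exact 95% intervals for counting error. They were taken for members with at most 3 counts in each EV library and more than 3 in a TET1-CD library. That choice favours ratios above 1. Besides the ratios given above, they were 2.02 for FUT2 (interval 0.541 to 9.17) and 2.02 for GALNT18 (0.432 to 12.5). Alternatives used DESeq2 1.42.0, limma-voom (limma 3.58.1), other scalings and filters, a replicate block and leaving out each library. Scripts were tested on simulated data. Named genes were all called members, the member of each family with the highest mean FPKM, TET1 and, in each list, up to 2 called genes with the smallest p. Other genes, such as A4GALT, B3GAT3, COG1, GATA3 and members that were not called, were chosen after their values were seen. Members and lists were chosen with earlier results of these data known. A result for a gene of the glycosidase list is not reported here.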

Additional observations from a re-analysis of the deposited data

How the results depend on the processing

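None of the 19 called members changed direction in the alternatives run for it. DESeq2 called 5 members higher in place of 10, of which 1 had a fold change of at least 2 in place of 3, and its 12 calls were all among the 19. The members it lost were MGAT3, GALNT3, GALNT12, ST3GAL4, B3GNT1, B3GNT2 and B3GALT6. Requiring 10 counts in every library left 0 members higher by at least 2-fold, because B3GNT7, MGAT3 and GALNT3 were then not tested. Over the 4 fits that each left out a library, members called higher ranged from 4 to 14, those called lower from 5 to 10, those at least 2-fold higher from 1 to 4 and those at least 2-fold lower from 1 to 1, and the log2 fold change of TET1 from 4.94 to 5.12. In these fits the lone library of a group is assumed to vary like the other group. By a chi-square per gene for the counts of a pair, the EV libraries differed more (6.53) than the TET1-CD libraries (2.80). The number of calls thus depends on which pair remains. Without TET1-CD replicate 1 and without TET1-CD replicate 2, 4 were higher and 5 lower. The log2 fold change of GALNT2 was 0.16 without EV replicate 1 and 0.06 without EV replicate 2, and that of MGAT4B -0.23 and -0.02. Of the 19 calls, 8 were kept in every alternative that gave a value: B3GNT7, B3GNT9, B4GALNT4, B4GALT5, B4GALT7, FUT11, GALNT6 and GCNT2.

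With the replicate block, 11 members were higher and 9 lower, 4 and 1 of them by at least 2-fold, and all 19 calls were kept. Same-numbered libraries showed little shared deviation (correlation of deviations 0.00713, and 0.0504 for genes above the median CPM). This cannot exclude that the numbers pair them, and the block raised the calls over all genes from 2865 to 3235. Counts of 3 or fewer are at the floor of detection, and 30 members were too scarce to test. With 2 libraries a group, the smaller differences rest on a spread estimated across all genes.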

Other observations

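The transcript split within ST6GALNAC6 was uneven. ENST00000373146 had 548 and 488 estimated counts in EV against 317 and 387 in TET1-CD cells, whereas ENST00000373144 had 221 and 237.5 against 279 and 257. ENST00000291839 varied within groups, at 260 and 164 in EV against 31.0 and 198 in TET1-CD cells. For ST3GAL4, ENST00000531217, annotated as a target of nonsense-mediated decay, was listed at 68.4 counts in TET1-CD replicate 1 and at 0.1 or less in the other libraries. Estimates for transcripts that share most of their sequence carry an error that the files do not give, and no test was made.

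Of 10 urothelial markers, GATA3 had 19 and 19 counts in EV against 46 and 44 in TET1-CD cells (adjusted p = 0.0163, edgeR), and FOXA1 stood at 22.5 and 21.1 against 26.6 and 29.9 CPM (adjusted p = 0.0204, edgeR). DESeq2 called neither.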
